A study of Mus musculus with 12 samples.

Results

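The genes described here encode the machinery of oxidative phosphorylation, complexes I to V of the inner mitochondrial membrane, in type 1 conventional dendritic cells (cDC1). They were chosen by name: every gene on a probe set with a single symbol that starts with Nduf, Uqcr, Cox4, Cox5, Cox6, Cox7, Cox8 or Atp5, together with Sdha, Sdhb, Sdhc and Sdhd. This rule used no measured value, but it was chosen with earlier results of these data known. It gave 89 genes on 114 probe sets, of 19938 genes tested. Where a gene had several probe sets, the brightest was kept. Naive C57BL/6 mice gave the cells, which were sorted out of the spleen or the skin-draining lymph nodes. Their RNA was hybridised to 12 Affymetrix arrays, in 4 groups of 3. All mice carried CD40 fl/fl, that is, both Cd40 alleles had loxP sites around the part to be deleted. Those called control here were Xcr1+/+ CD40 fl/fl, without Cre. Those called Cre were Xcr1 Cre/+ CD40 fl/fl, in which the cDC1-restricted Xcr1-cre is meant to delete Cd40. Splenic cells were taken as B220-, MHC II high, CD11c high, XCR1+ and Sirpa-. Lymph node cells were taken with the same markers but intermediate CD11c, and the labels call them migratory. Neither the age of the mice nor the number pooled for an array is given in the sources used here, so the p-values measure the spread between these arrays, which may be technical.

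Oxidative phosphorylation passes electrons from NADH (complex I) and succinate (complex II) through coenzyme Q to complex III, cytochrome c and complex IV, where oxygen is reduced. The protons pumped on the way drive ATP synthesis by complex V. A core of the subunits does the catalysis, accessory subunits build around it, and assembly factors put the parts together without staying in the complex. Dendritic cells are known to lean on mitochondrial respiration at rest and to turn to glycolysis after strong activation. All members here are encoded in the nucleus; the 13 mitochondrially encoded subunits have no gene among those measured.

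The values are RMA intensities on a linear scale, and log2 was taken before each test. Array medians lay between 66.1 and 74.4. A background of 19.5 was set from the brightest mean of 3 Y-linked genes. Sry, also Y-linked, read 192 and was not used for it. Of the 89 members, 88 had a mean above this background, as had 18180 of all 19938 genes, and Cox7b2 had not. Sorted cells matched their labels in part: Xcr1, the chemokine receptor that marks cDC1, lay between 1945 and 3508 in spleen and between 203 and 286 in lymph node, and 5 of 6 measured markers of migratory dendritic cells were higher in lymph node in both genotypes. Cd40, the targeted gene, went against the labels in replicate 3: 569 in the spleen array labelled Cre against 309 in control, and 3358 against 1542 in lymph node. In replicates 1 and 2 it was lower on the arrays labelled Cre in both tissues. Where the Cd40 probes lie relative to the deleted part was not examined, and whether the replicate 3 labels were exchanged between genotypes was not tested. If they were, every replicate 3 value below would belong to the other genotype, so "control mice" and "Cre mice" mean arrays so labelled. The replicate 1 arrays also stood apart, with nearly all members high, as described further on. Arrays with the same replicate number deviated together in all 4 groups, so values come from the fit of group means, and those of the same fit with the replicate number as a block are added where they change a call or a count. Every member called without the block in a tissue comparison was also called with it.

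Among members that passed the test, more were lower than higher in migratory lymph node cDC1 against splenic cDC1. In control mice 12 members fell and 2 rose at a limma adjusted p under 0.05, called below. Of all genes, 13.2% were called lower and 12.9% higher, so 13.5% of members lower was near that background, and 2.25% of members higher was below it. With the replicate block, 37 members were lower (41.6%) and 10 were higher (11.2%), where 17.8% and 18.2% of all genes were called. The Cre arrays are separate, but the fit took a shared estimate of the spread from all 12 arrays, and same-numbered arrays deviated together. In Cre mice 13 members were lower (14.6%) and 2 higher (2.25%), against 15.2% and 13.1% of all genes. The block raised this to 42 lower (47.2%) and 10 higher (11.2%), against 20.4% and 20.5%. The excess of lower over higher members thus stood in both fits, but a share of lower calls above that of all genes appeared with the block. This pattern was not particular to the members. Of 60 cytosolic ribosomal proteins, 7 were lower in control (11.7%) and 8 in Cre mice (13.3%), and none was higher. With the block 22 were lower (36.7%) and 1 higher in control, and 26 (43.3%) and 1 in Cre mice.

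The median member difference, lymph node minus spleen on the log2 scale, was -0.17 in control and -0.22 in Cre mice, where the median of all genes was 0.03 and 0.07. Differences below 0 were found for 66 and 65 of the 89 members. The genes called in both genotypes were 10 lower and 2 higher, or 35 lower and 9 higher with the block. Taking the 6 pairs of arrays with the same genotype and number, 52 members (58.4%) were lower in lymph node in 6 of 6 pairs, as were 20.6% of all genes. Another 12 (13.5%) were higher in 6 of 6, against 23.4% of all genes. Of the 60 cytosolic ribosomal proteins, 30 (50%) were lower and 2 higher in 6 of 6. The 3 lymph node and 3 spleen arrays did not overlap for 15 lower and 3 higher members in control mice, and for 20 lower and 2 higher in Cre mice. Over all genes these shares were 17.3% and 19% in control and 18.7% and 22.4% in Cre mice.

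These counts depended on which arrays entered. Without the 4 replicate 1 arrays, and with no block, 32 members were lower and 7 higher in control mice, and 37 and 7 in Cre mice. Without the 4 replicate 3 arrays, which include those whose Cd40 went against the label, 1 member was lower in control and 5 in Cre mice, and none was higher. That fit, on 2 arrays a group, called 1462 lower and 1403 higher over all genes in control mice, and 1761 and 1333 in Cre mice. Because whole sorted populations were measured, fewer cells of a kind and less RNA per cell cannot be told apart.

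**Figure D1:**
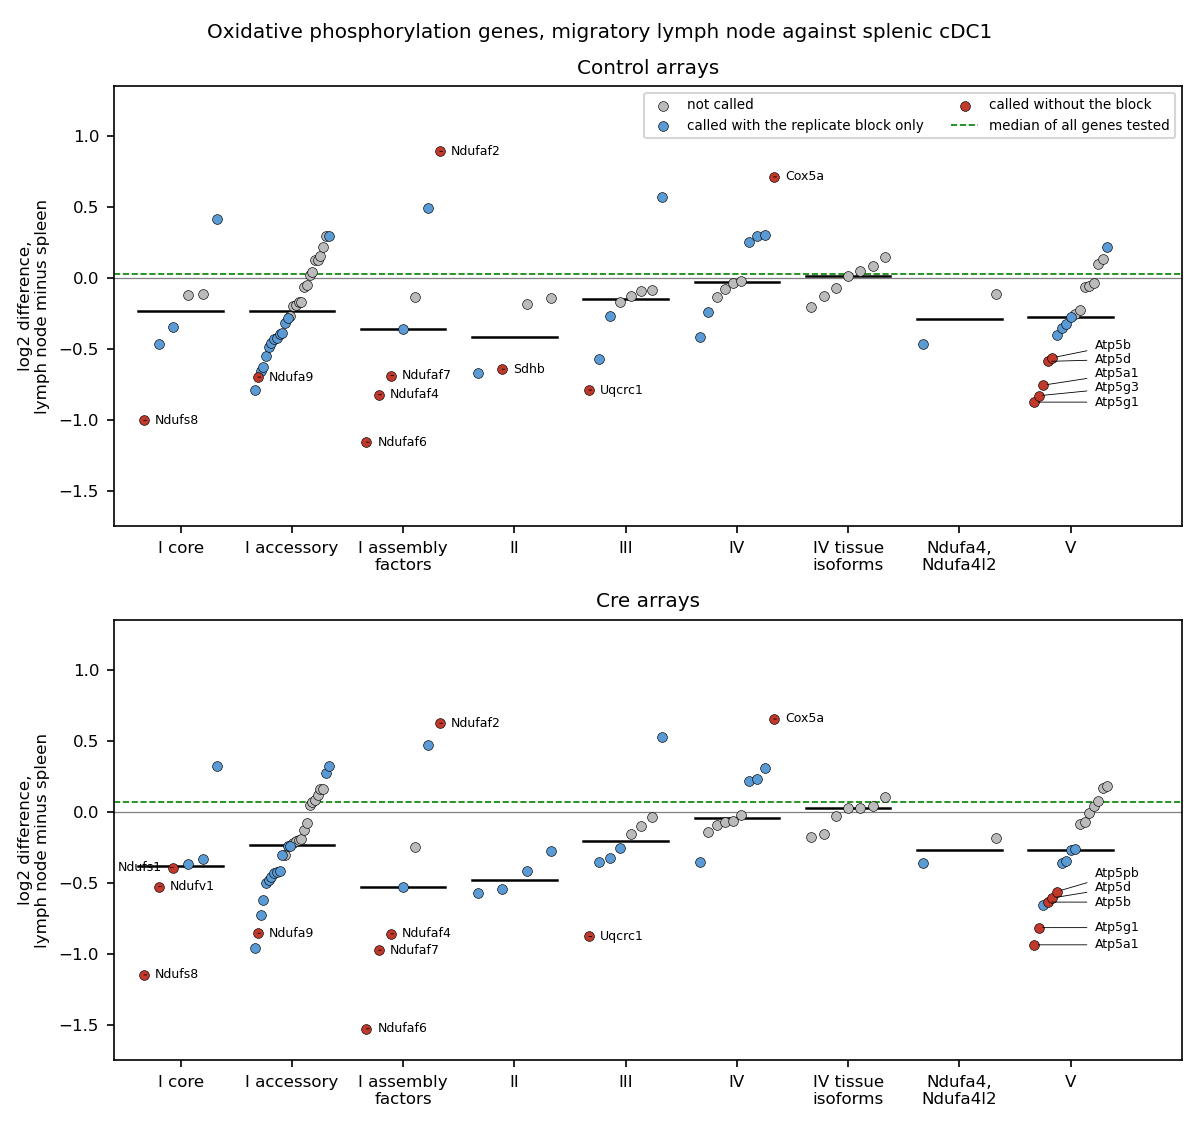
Log2 difference, lymph node minus spleen, for each of the 89 members, grouped by complex and role, in control mice (top) and Cre mice (bottom); each point is a gene, black bars are group medians, the dashed line is the median of all 19938 genes, red points were called without the block and blue points only with it. Points lie mostly below 0 in complexes I, II, III and V, while complex IV has Cox5a at 0.71 and 0.65 and a median of -0.03 and -0.04.

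Complex I takes electrons from NADH, and 6 of its catalytic core subunits were measured. In this core 1 subunit was lower in control (16.7%) and 3 in Cre mice (50%), and none was higher. With the block 3 were lower (50%) and 1 higher in control, and 5 lower (83.3%) and 1 higher in Cre mice. Of all genes, 13.2% were called lower and 12.9% higher in control mice, and 15.2% and 13.1% in Cre mice. With the block these shares were 17.8% and 18.2%, and 20.4% and 20.5%. Ndufs8, which carries a pair of the iron-sulfur clusters on the path to coenzyme Q, had the largest fall of any subunit. On replicates 1, 2 and 3 in that order, as in every series of values below, it gave 1000.3, 657 and 731 in spleen control, 1177, 721 and 785 in spleen Cre, 526, 320.2 and 353 in lymph node control and 502, 322 and 377 in lymph node Cre. All 6 lymph node arrays were below all 6 spleen arrays, and replicate 1 was the highest of each group. Ndufs8 was 2.01-fold lower in control mice (log2 difference -1.01 ± 0.25 SE, adjusted p = 0.0076) and 2.22-fold lower in Cre mice (-1.15 ± 0.25, adjusted p = 0.003).

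Ndufv1, the subunit that binds NADH, gave 1017, 746 and 822 and 752, 645 and 623 in control spleen and lymph node, which overlapped. In Cre mice it gave 981, 885 and 862 and 685, 572 and 637, which did not. The log2 difference was -0.35 ± 0.16 (adjusted p = 0.13) and -0.53 ± 0.16 (adjusted p = 0.02). Ndufs1, the largest core subunit, gave 241, 241 and 243 in spleen Cre and 206, 183 and 164 in lymph node Cre. Its difference in Cre mice was -0.39 ± 0.13 (adjusted p = 0.042) and -0.12 ± 0.13 in control mice (adjusted p = 0.66). Both calls were lost under quantile normalization, and that of Ndufs1 also in the fit of only the groups compared. Ndufs1 lost its call without any one of 5 of the 6 Cre arrays (all but lymph node replicate 1), and Ndufv1 without spleen Cre replicate 1 or 2 or lymph node Cre replicate 2. The difference between genotypes was not called for either. Ndufv2, the iron-sulfur partner of Ndufv1, stood on the other side of 0 at 0.41 ± 0.19 and 0.32 ± 0.19. It was called only with the block (adjusted p = 0.00086 and 0.0051); this and other members called only with the block were named after their values were seen.

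Accessory subunits of complex I numbered 28, of which 20 had a difference below 0 in each genotype, with a median of -0.23 in both. Without the block 1 was lower (3.57%) and none higher in each genotype, below the 13.2% and 15.2% of all genes called lower. With the block 13 were lower in each (46.4%), against 17.8% and 20.4% of all genes. Higher with the block were 1 in control (3.57%) and 2 in Cre mice (7.14%), against 18.2% and 20.5%. The member called in both fits was Ndufa9, an accessory subunit at the junction of the membrane and matrix arms. It gave 1499.9, 1521 and 1619 in spleen control, 1530.3, 1667 and 1624 in spleen Cre, 1047, 966 and 850.0 in lymph node control and 914, 786 and 971 in lymph node Cre. All 6 spleen arrays lay above all 6 lymph node arrays, and replicate 1 was not the highest array in 3 of the 4 groups. The fall was 1.63-fold in control (log2 difference -0.70 ± 0.14, adjusted p = 0.0014) and 1.81-fold in Cre mice (-0.86 ± 0.14, adjusted p = 0.00028).

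Ndufb2, a membrane-arm subunit, shows what the block does. It gave 987, 486 and 523 in spleen control and 529.9, 275 and 332 in lymph node control, so that lymph node replicate 1 lay above spleen replicates 2 and 3. Within each replicate number the lymph node array was lower, by 0.90, 0.82 and 0.66 on the log2 scale in control mice. The difference of -0.79 ± 0.36 had an adjusted p of 0.14 without and 0.00011 with the block. Ndufa5, Ndufb8 and Ndufc1 followed at -0.66, -0.63 and -0.55 in control mice, and were called only with the block. On the other side Ndufa3 was at 0.30 ± 0.27 in control and 0.32 ± 0.27 in Cre mice (block adjusted p = 0.024 and 0.015). Of the 17 members with several probe sets, Ndufa11 alone had probe sets that differed in direction in control mice, at 0.15 for the brightest and -0.11 for the other. Ndufab1, the mitochondrial acyl carrier protein, was at -0.49 ± 0.31 in control and -0.30 ± 0.31 in Cre mice, called only in control mice with the block (adjusted p = 0.017, and 0.12 in Cre).

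Assembly factors of complex I held the widest spread of any group: the 7 measured ran from -1.16 to 0.89 in control and from -1.53 to 0.62 in Cre mice. In each genotype 3 were lower (42.9%) and 1 higher (14.3%), or 4 lower (57.1%) and 2 higher (28.6%) with the block. Of all genes, 13.2% and 15.2% were called lower in control and Cre mice, or 17.8% and 20.4% with the block. The shares of all genes called higher were 12.9% and 13.1%, or 18.2% and 20.5% with the block. Ndufaf6, which acts early in building the arm that binds coenzyme Q, gave 285, 141 and 169 in spleen control and 227, 203 and 224 in spleen Cre. In lymph node it gave 105, 104 and 55.9 in control and 88.0, 69.2 and 70.3 in Cre mice. Every lymph node array was below every spleen array, and it was 2.23-fold (adjusted p = 0.0038) and 2.89-fold lower (adjusted p = 0.00045).

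Ndufaf7, a methyltransferase of the mitochondrial matrix, was tightly set in lymph node. Its values there were 179, 179.9 and 181 in control and 189, 172 and 163 in Cre mice, against 352, 250.0 and 278 and 373, 351 and 308 in spleen. The log2 difference was -0.69 ± 0.15 (adjusted p = 0.0026) and -0.98 ± 0.15 (adjusted p = 0.00016). Ndufaf4, another early factor, gave 219, 189 and 166 and 114, 129 and 84.2 in control spleen and lymph node. In Cre mice it gave 288, 213 and 208 and 191, 89.0 and 125. Its difference was -0.82 ± 0.25 (adjusted p = 0.023) and -0.86 ± 0.25 (adjusted p = 0.017). The call was lost without spleen control replicate 1 or 2 or lymph node control replicate 3, and in Cre mice without spleen replicate 1 or lymph node replicate 2 or 3, or under quantile normalization.

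Ndufaf2, a late factor related to the accessory subunit Ndufa12, had the largest rise of any member in control mice. Its spleen values were 271, 279 and 251 in control and 313, 329 and 306 in Cre mice, and its lymph node values 635, 441 and 431 and 629, 370.1 and 494. Here replicate 1 was high in lymph node and not in spleen, and the tissues did not overlap. It was 1.85-fold higher in control mice (log2 difference 0.89 ± 0.20, adjusted p = 0.0034) and 1.54-fold higher in Cre mice (0.62 ± 0.20, adjusted p = 0.029). The call in Cre mice was lost without any one of 5 of the 6 Cre arrays (all but lymph node replicate 2) and in the fit of only the groups compared, and the difference fell to 0.44 without lymph node replicate 1. Ndufaf3, which acts with Ndufaf4, was on the other side of 0 from its partner, at 0.49 ± 0.23 and 0.47 ± 0.23, called only with the block (adjusted p = 0.0015 and 0.0022).

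Complex II, succinate dehydrogenase, belongs to both the TCA cycle and the respiratory chain, and all 4 of its genes had a difference below 0 in both genotypes. Sdhb, its iron-sulfur subunit, gave 2248, 1515 and 1577 in spleen control and 1409, 961 and 1036 in lymph node control. In Cre mice it gave 2338, 1574 and 1648 and 1492, 1002 and 1235, so that the tissues did not overlap in either genotype. The difference was -0.65 ± 0.22 (adjusted p = 0.046) and -0.57 ± 0.22 (adjusted p = 0.072); with the block both passed (1.9e-05 and 5.8e-05). The call in control mice was lost under quantile normalization, in the fit of only the groups compared, and without any one of 5 of the 6 control arrays (all but lymph node replicate 1). Sdhc, a membrane anchor, was at -0.67 ± 0.27 and -0.55 ± 0.27, called only with the block (adjusted p = 0.0008 and 0.0036). Sdha, the flavoprotein that oxidises succinate, was at -0.19 ± 0.24 and -0.42 ± 0.24, and Sdhd, the other anchor, at -0.15 ± 0.21 and -0.28 ± 0.21. With the block these were called in Cre mice (adjusted p = 0.0031 and 0.04) and not in control mice (0.17 and 0.32), and the genotypes did not differ by the test of that difference.

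Complex III had 8 measured genes by the naming rule, 7 with a difference below 0 in each genotype. Its cytochrome c1 gene, Cyc1, falls outside the rule and is counted with the electron carriers below. Uqcrc1, a core protein on the matrix side, had the smallest adjusted p of any member in control mice without the block; with it Ndufs8 had (7.4e-07, and 2.1e-06 for Uqcrc1). It gave 1807, 1576 and 1647 in spleen control, 1780.2, 1646 and 1556 in spleen Cre, 1043, 902 and 959 in lymph node control and 1008, 851 and 854 in lymph node Cre. The tissues were far apart and the arrays of a group close together. Its fall was 1.73-fold in control (log2 difference -0.79 ± 0.14, adjusted p = 0.00048) and 1.84-fold in Cre mice (-0.88 ± 0.14, adjusted p = 0.00019). Its partner Uqcrc2 was at -0.17 ± 0.13 and -0.33 ± 0.13 and was called only in Cre mice with the block (adjusted p = 0.0055, and 0.14 in control). The Rieske protein Uqcrfs1, which hands electrons towards cytochrome c, was at -0.09 ± 0.23 and -0.16 ± 0.23, not called in either fit.

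Uqcrh, the hinge protein between cytochrome c1 and cytochrome c, lay opposite to the rest of its complex. It gave 7440.3, 4541 and 4928 in spleen control and 10661, 7078 and 7238 in lymph node control. In Cre mice it gave 8172, 4791 and 5209 and 10381, 7169 and 8134. Spleen replicate 1 lay above lymph node replicates 2 and 3 in control mice, but every number-matched pair was higher in lymph node. The difference of 0.57 ± 0.24 and 0.52 ± 0.24 was therefore called only with the block (adjusted p = 4.1e-06 and 9.2e-06).

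Complex IV, cytochrome c oxidase, had 10 widely expressed genes, 6 of them with a difference below 0 in each genotype. Without the block 1 was higher (10%) and none lower in each genotype. Of all genes, 12.9% were called higher in control and 13.1% in Cre mice. With the block 4 were higher (40%) and 2 lower (20%) in control, against 18.2% and 17.8% of all genes. In Cre mice 4 were higher (40%) and 1 lower (10%), against 20.5% and 20.4%. That balance moved with the scaling: with the block, quantile normalization gave 1 higher and 3 lower in control and 1 and 1 in Cre mice, and median centring gave 4 and 2 in control and 2 and 2 in Cre mice. Cox5a, a structural subunit on the matrix face, was the member called without the block. It gave 2596, 1605 and 1692 in spleen control, 2384, 1814 and 1912 in spleen Cre, 3774, 2660.0 and 3071 in lymph node control and 4089, 2753 and 2853 in lymph node Cre. Every lymph node array was above every spleen array. The rise was 1.64-fold in control (log2 difference 0.71 ± 0.21, adjusted p = 0.025) and 1.57-fold in Cre mice (0.65 ± 0.21, adjusted p = 0.035). Without the block it lost the call under quantile normalization in both genotypes. It also lost it without spleen replicate 2 or 3 or lymph node replicate 1 of the same genotype, or lymph node control replicate 3. With the block its adjusted p was 6.2e-06 and 1.3e-05.

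Isoform families were compared by each gene's own difference between tissues, since probes of different genes share no scale. Cox4i1, the common form of subunit 4, gave 4866, 3947 and 3949 in spleen control and 6376, 4459.9 and 4509 in lymph node control. Its difference was 0.25 ± 0.18 and 0.22 ± 0.18, called only with the block (adjusted p = 0.0065 and 0.015). The hypoxia-linked Cox4i2 was at 0.01 ± 0.12 and 0.02 ± 0.12, with no call. Cox6b1 was at 0.30 ± 0.18 and 0.31 ± 0.18 and Cox7a2l, which helps join complexes III and IV, at 0.29 ± 0.13 and 0.23 ± 0.13. Both were higher with the block in both genotypes (adjusted p between 0.0032 and 0.014). Cox7b lay below 0 at -0.42 ± 0.25 and -0.35 ± 0.25 (block adjusted p = 0.001 and 0.0035). Cox6a1 was lower with the block in control mice (-0.24 ± 0.15, adjusted p = 0.021) and not called in Cre mice (0.14), and Cox7a2 and Cox8a were not called.

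Heart, muscle, testis and lung forms of complex IV subunits (Cox4i2, Cox6a2, Cox6b2, Cox7a1, Cox7b2, Cox8b and Cox8c) were dim, with array values between 14.4 and 162. None of these 7 was called in any comparison in either fit, and their differences in control mice lay between -0.21 and 0.14. Ndufa4, first assigned to complex I and now placed in complex IV, gave 3638, 1996 and 2169 in spleen control and 2674, 1478 and 1496 in lymph node control. Its difference was -0.47 ± 0.30 and -0.36 ± 0.30 (block adjusted p = 0.00019 and 0.0017), with no call without the block. Its hypoxia-induced relative Ndufa4l2 was dim, between 23.0 and 36.4, and was not called.

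Complex V, the ATP synthase, had 5 of 17 genes lower (29.4%) and none higher in each genotype. Of all genes, 13.2% were lower and 12.9% higher in control, and 15.2% and 13.1% in Cre mice. With the block 9 were lower (52.9%) and 1 higher (5.88%) in control, against 17.8% and 18.2% of all genes. In Cre mice the block gave 10 lower (58.8%) and none higher, against 20.4% and 20.5%. The catalytic head was among the lower genes. Atp5a1 encodes its alpha subunit and gave 1585, 2093 and 2175 in spleen control, 1750.2, 2008 and 1936 in spleen Cre, 990.4, 1159 and 1300.0 in lymph node control and 921, 1061 and 989 in lymph node Cre. The tissues did not overlap, and replicate 1 was the lowest array of each group, opposite to most members. It was 1.69-fold lower in control (log2 difference -0.76 ± 0.16, adjusted p = 0.0022) and 1.92-fold lower in Cre mice (-0.94 ± 0.16, adjusted p = 0.00041).

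Atp5b, the catalytic beta subunit, gave 4018, 4719 and 4580.5 in spleen control and 2778, 3019 and 3202 in lymph node control. Its difference was -0.56 ± 0.13 (adjusted p = 0.0043) and -0.64 ± 0.13 in Cre mice (adjusted p = 0.0018). Atp5d, the delta subunit of the central stalk, fell by a like amount, at -0.59 ± 0.14 and -0.61 ± 0.14 (adjusted p = 0.005 and 0.004). Atp5c1, the gamma subunit of the same stalk, was at -0.07 ± 0.16 and -0.07 ± 0.16 and was not called in either fit. Atp5pb, of the peripheral stalk, was called in Cre mice (-0.56 ± 0.17, adjusted p = 0.02) and in control mice only with the block (-0.35 ± 0.17, adjusted p = 0.16 without and 0.0047 with it). The call in Cre mice was lost without spleen Cre replicate 1 or 3 or lymph node Cre replicate 2 or 3, under quantile normalization and in the fit of only the groups compared, and the test of the difference between genotypes called neither gene nor any other member.

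The separate genes Atp5g1, Atp5g2 and Atp5g3 encode the same mature c subunit of the membrane rotor, and they differed among themselves. Atp5g1 gave 1209, 837 and 824 in spleen control and 665, 426 and 474 in lymph node control, without overlap. Atp5g3 gave 2373, 1496 and 1483 and 1340.4, 815 and 854, again without overlap. Atp5g2 gave 951, 682 and 789 and 1114, 786 and 765, which overlapped. The differences were -0.88 ± 0.25 (adjusted p = 0.016), -0.83 ± 0.26 (0.028) and 0.13 ± 0.19 (0.73) for Atp5g1, Atp5g3 and Atp5g2. In Cre mice they were -0.82 ± 0.25 (adjusted p = 0.022), -0.66 ± 0.26 (0.076) and 0.07 ± 0.19 (0.81). With the block Atp5g1 and Atp5g3 were called in both genotypes (largest adjusted p 5.2e-05). Without it Atp5g1 lost its control call without spleen control replicate 1 or lymph node control replicate 2 or 3, as did Atp5g3, which also lost it under quantile normalization. In Cre mice Atp5g1 lost it without spleen Cre replicate 1 or lymph node Cre replicate 2 or 3, or under quantile normalization. A direct test between the Atp5g genes was not made. Atp5l was the member of complex V called higher with the block in control mice (0.22 ± 0.26, adjusted p = 0.043), and not in Cre mice (0.079). Atpif1, the inhibitor of the enzyme's reverse reaction and no member by the rule, was lower as well, at -0.50 ± 0.15 and -0.50 ± 0.15 (adjusted p = 0.024 and 0.021).

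**Figure D2:**
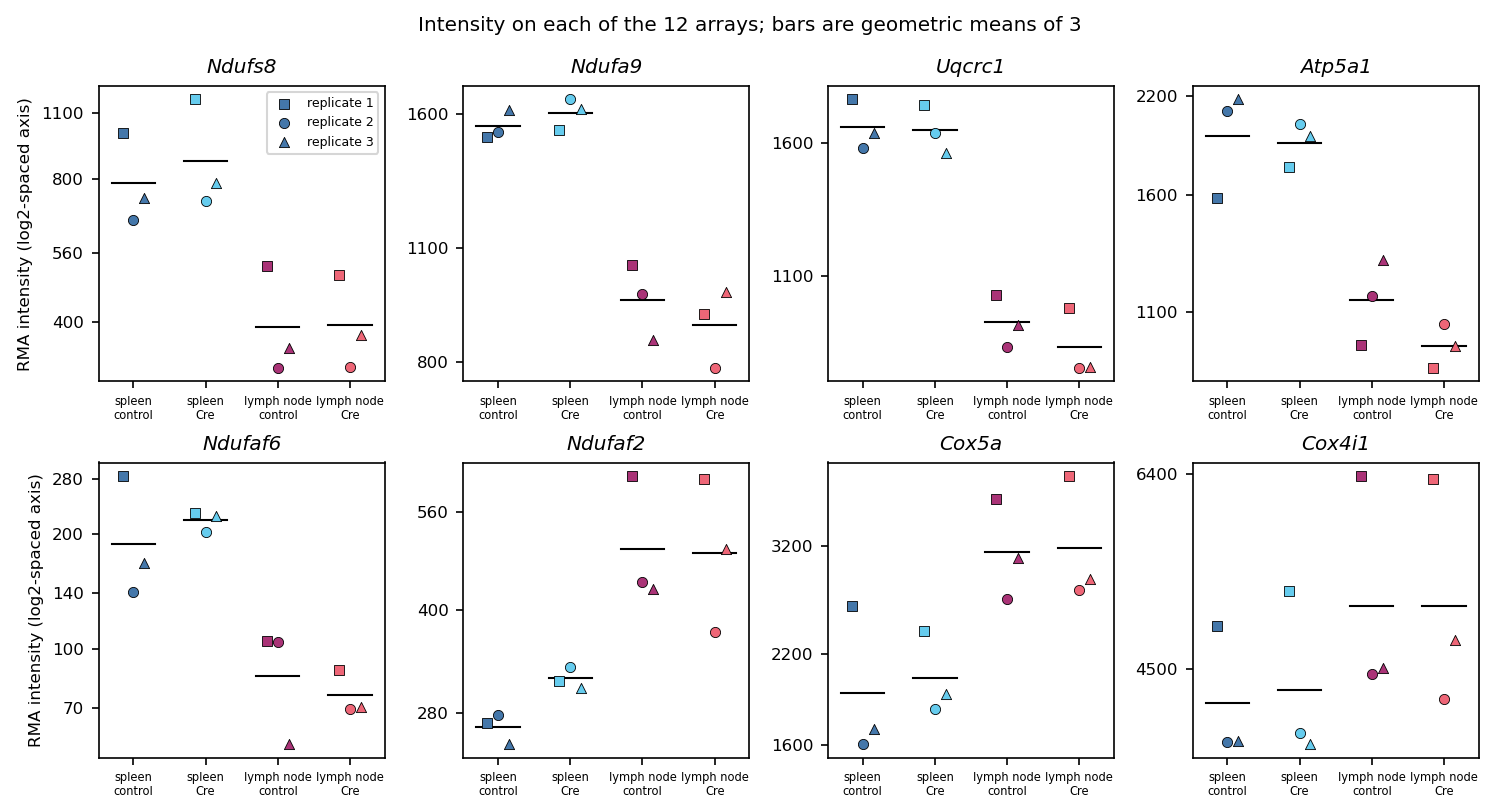
RMA intensity of 8 members on each of the 12 arrays (log2-spaced vertical axis, a different range in each panel), by group; squares, circles and triangles are replicates 1, 2 and 3 and black bars are geometric means of 3. The tissues are apart in every panel but Cox4i1, where replicate 1 of each spleen group lies above replicates 2 and 3 of the lymph node groups, and the square is the highest point of each group for Ndufs8, Uqcrc1, Ndufaf6, Cox5a and Cox4i1 and the lowest for Atp5a1.

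The 5-prime regions of 5 of these genes are shown as examples from both directions of the tissue difference. Uqcrc1, Ndufs8 and Ndufaf4 were lower in lymph node, and Cox5a and Ndufaf2 were higher. Each window runs from 250 bases before to 30 bases after the RefSeq start, 5′ to 3′ on the gene's strand (build GRCm38.p6). Capitals mark matches to GCNTGCGC, the core of the NRF1 motif, and to CCGGAAG, an ETS motif of the kind GABPA binds, each searched on both strands. NRF1 and GABPA are known as regulators of nuclear genes for respiratory subunits. The windows are chr9:108936398-108936677 (plus) for Uqcrc1, chr19:3912745-3913024 (minus) for Ndufs8, chr4:24897833-24898112 (plus) for Ndufaf4, chr9:57520982-57521261 (plus) for Cox5a and chr13:108158596-108158875 (minus) for Ndufaf2.
Uqcrc1: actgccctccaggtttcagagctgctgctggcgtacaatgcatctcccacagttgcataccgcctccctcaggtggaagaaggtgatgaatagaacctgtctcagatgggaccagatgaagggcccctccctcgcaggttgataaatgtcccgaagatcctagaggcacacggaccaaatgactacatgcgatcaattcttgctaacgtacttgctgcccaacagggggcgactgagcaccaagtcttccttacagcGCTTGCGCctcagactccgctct
Ndufs8: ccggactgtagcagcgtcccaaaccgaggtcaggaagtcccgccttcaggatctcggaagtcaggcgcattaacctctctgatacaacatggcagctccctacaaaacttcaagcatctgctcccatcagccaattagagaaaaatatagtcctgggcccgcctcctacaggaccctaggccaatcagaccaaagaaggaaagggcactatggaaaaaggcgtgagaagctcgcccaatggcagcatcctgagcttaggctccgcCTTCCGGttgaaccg
Ndufaf4: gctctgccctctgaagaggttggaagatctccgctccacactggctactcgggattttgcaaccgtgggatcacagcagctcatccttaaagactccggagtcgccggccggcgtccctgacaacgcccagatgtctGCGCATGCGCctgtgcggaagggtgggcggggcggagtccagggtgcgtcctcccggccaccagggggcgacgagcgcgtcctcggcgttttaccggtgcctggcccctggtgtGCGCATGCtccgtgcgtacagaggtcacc
Cox5a: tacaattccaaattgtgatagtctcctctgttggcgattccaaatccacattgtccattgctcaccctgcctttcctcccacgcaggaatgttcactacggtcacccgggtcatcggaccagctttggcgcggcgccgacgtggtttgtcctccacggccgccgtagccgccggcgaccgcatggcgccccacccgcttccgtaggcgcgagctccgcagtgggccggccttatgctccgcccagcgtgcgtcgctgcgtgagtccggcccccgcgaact
Ndufaf2: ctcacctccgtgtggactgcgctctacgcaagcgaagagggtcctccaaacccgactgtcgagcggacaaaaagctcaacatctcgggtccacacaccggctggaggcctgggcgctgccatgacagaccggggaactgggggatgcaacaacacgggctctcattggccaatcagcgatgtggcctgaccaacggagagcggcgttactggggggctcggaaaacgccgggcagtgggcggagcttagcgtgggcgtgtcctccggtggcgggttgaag
The NRF1 core was matched in Uqcrc1 and in Ndufaf4, where 2 of 3 matches overlap each other in a palindrome. The ETS motif was matched in Ndufs8, on the minus strand of the window. Neither motif was found in the windows of Cox5a and Ndufaf2. The examples do not stand for all lower genes. Of those called lower in control mice without the block, Atp5b, Atp5d, Atp5g1, Ndufa9 and Ndufaf7, not shown, had neither motif. Atp5g3 and Sdhb, also lower and not shown, had matches. Windows were available for 73 of the 89 members. Among the members' 78 windows, 32.1% held the NRF1 core and 23.1% the ETS motif, against 9.46% and 8.45% of all 32851 windows. By genes, the NRF1 core was in 11 of the 32 members with a window that were lower with the block in control mice (34.4%) and in 1 of the 9 that were higher (11.1%). For the ETS motif these were 6 of 32 (18.8%) and 3 of 9 (33.3%). In Cre mice the NRF1 core was in 12 of 35 lower members (34.3%) and 1 of 9 higher (11.1%), and the ETS motif in 8 of 35 (22.9%) and 2 of 9 (22.2%). These are counts of letters and no test was made of them.

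Between arrays labelled Cre and control, no member was called in spleen, in lymph node or in the test of whether the tissue difference depends on genotype. The share of all genes called in these 3 comparisons was 0% as well, with and without the block. At an unadjusted p under 0.05, limma gave 0 members in each without the block, where 357, 402 and 326 of all genes passed. Each of these counts over all genes is under the share of 0.05 that would pass if no gene differed. The 0 members in that fit therefore say little about genotype. With the block limma gave 0, 2 and 0 members, and 886, 1360 and 1145 of all genes. The median member difference, Cre minus control, was 0.05 in spleen and 0.02 in lymph node, with single genes between -0.12 and 0.29 and between -0.21 and 0.26. The comparison therefore leaves room for small differences: the 2 genotypes of 3 arrays each gave a standard error of 0.25 for Ndufaf4 and 0.14 for Uqcrc1. Without the replicate 3 arrays, whose Cd40 went against the label, no member was called either.

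In spleen the smallest unadjusted p belonged to Ndufaf7, at 0.24 ± 0.15. Ndufaf2, Ndufaf4, Cox7b2 and Ndufb3 followed among those above 0, at 0.24, 0.29, 0.08 and 0.16. Ndufa4l2, Cox4i2, Uqcrq, Atp5g3 and Cox6a2 led those below 0, at -0.09, -0.07, -0.12, -0.09 and -0.06. In lymph node the leading genes above 0 were Cox8b (0.16 ± 0.12), Ndufaf4, Sdhc, Uqcr11 and Atp5e, the latter 4 between 0.17 and 0.26. Those below 0 were Ndufs1 (-0.19 ± 0.13), Atp5a1, Ndufa4l2, Atp5pb and Uqcrc2, the latter 4 between -0.21 and -0.12.

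The tissue difference changed between genotypes by a median of -0.02 over the members. Ndufs1 had the smallest unadjusted p, at -0.28 ± 0.19. Ndufaf7 (-0.29 ± 0.21), Ndufaf6 (-0.37 ± 0.37), Ndufaf2 (-0.27 ± 0.28) and Atp5pb (-0.21 ± 0.24) came next among those below 0. Above 0 the first were Cox8b, Atp5e, Atp5g3, Uqcr11 and Cox6a1, between 0.09 and 0.22. The 3 comparisons share arrays with one another and with the tissue comparisons.

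The members also differed by replicate number. The replicate 1 array was the highest of 3 in all 4 groups for 71 members (79.8%) and the lowest in all 4 for 3 members, Sdha, Atp5a1 and Atp5b (3.37%). Over all genes, replicate 1 was highest in all 4 groups for 19.1% and lowest for 14.2%. The median gap between replicate 1 and the mean of replicates 2 and 3 was 0.45 in spleen control, 0.39 in spleen Cre, 0.54 in lymph node control and 0.51 in lymph node Cre on the log2 scale. For all genes these medians lay between 0.05 and 0.07.

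**Figure D3:**
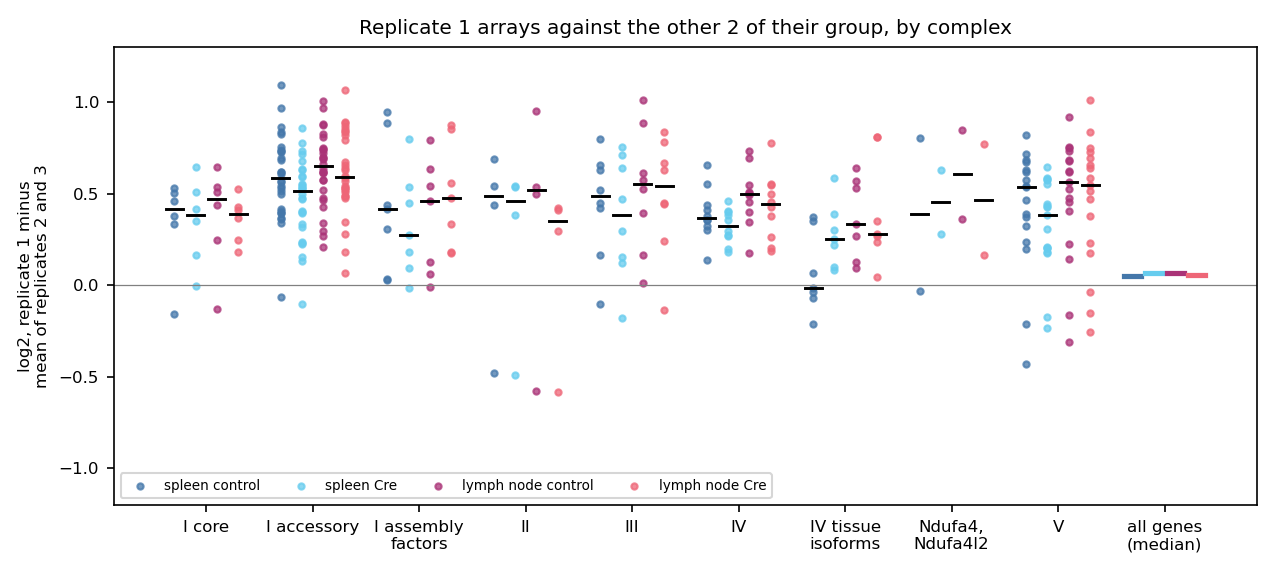
Gap between the replicate 1 array and the mean of replicates 2 and 3 of its group on the log2 scale, for each member by complex and role; colours are the 4 groups, black bars are medians over the genes of a role, and coloured bars at the right are medians over all 19938 genes. Medians lie above 0 in every role but the complex IV tissue isoforms in spleen control (-0.02), and all 10 genes of complex IV are above 0 in all 4 groups.

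The gap ran through all complexes. Replicate 1 was highest in all 4 groups for 26 of 28 accessory subunits and 5 of 6 core subunits of complex I, 3 of 4 genes of complex II, 7 of 8 of complex III, 10 of 10 of complex IV and 13 of 17 of complex V. The dim tissue isoforms of complex IV had 3 of 7 and the assembly factors of complex I 3 of 7. Averaged over groups, the gap was largest for Ndufb2 (0.89), Ndufs6 (0.89) and Ndufaf5 (0.85). Ndufs6, an accessory subunit that holds zinc, gave 1719.7, 911 and 980.2 in spleen control and 1599, 822 and 816 in lymph node control, so its replicate gap was wider than its tissue difference of -0.17 ± 0.35. At the other end were Sdha (-0.53), Atp5a1 (-0.27) and Atp5b (-0.22). Sdha gave 1312, 1782 and 1881 in spleen control, 1342, 1994 and 1777 in spleen Cre, 1101, 1596 and 1697 in lymph node control and 960.4, 1646 and 1261 in lymph node Cre, with replicate 1 the lowest each time.

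Other gene groups shared this gap to different degrees. Replicate 1 was highest in all 4 groups for 34 of 48 proteins of the large mitochondrial ribosomal subunit (70.8%) and for 43 of 60 cytosolic ribosomal proteins (71.7%). For the TCA cycle this was 4 of 18 genes and for glycolysis 1 of 17. Markers of cDC1 were lower on replicate 1, with a median gap of -0.40, -0.59, -0.31 and -0.09 in the 4 groups. Within each replicate number the members' median difference between tissues was nonetheless below 0: -0.10, -0.17 and -0.26 for replicates 1, 2 and 3 in control mice, and -0.13, -0.35 and -0.15 in Cre mice. What sets the replicate 1 arrays apart was not tested.

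Genes around the respiratory chain were read from lists of related pathways. Their counts stand beside the shares of all genes called lower and higher: 13.2% and 12.9% in control and 15.2% and 13.1% in Cre mice, and with the block 17.8% and 18.2% in control and 20.4% and 20.5% in Cre mice. Of 18 genes of the TCA cycle, which supplies NADH and succinate, 8 were lower and none higher in control mice and 9 and 0 in Cre mice (44.4% and 50% lower). With the block this was 12 lower and 1 higher, and 14 and 0. Idh3a, the catalytic subunit of the NAD-dependent isocitrate dehydrogenase, went from 381, 385 and 459 in spleen control to 90.1, 95.7 and 110.1 in lymph node control. This was 4.14-fold lower (log2 difference -2.05 ± 0.16, adjusted p = 3.4e-07) and 4.76-fold lower in Cre mice. Suclg2, of succinyl-CoA ligase, Mdh2, the mitochondrial malate dehydrogenase, and Idh2, the NADP-dependent isocitrate dehydrogenase, were at -1.04 ± 0.11, -1.17 ± 0.13 and -0.97 ± 0.15 in control mice (largest adjusted p 0.00018).

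Electron carriers and coenzyme Q synthesis, a list that also holds Cyc1 of complex III, had 7 of 19 genes lower (36.8%) in each genotype. In each genotype 1 was higher, and with the block 9 were lower and 1 higher. Coq2, which attaches the tail of coenzyme Q, was 3.21-fold lower in control and 3.19-fold lower in Cre mice (adjusted p = 3.1e-06 and 3.1e-06). Gpd2, which feeds electrons from cytosolic glycerol-3-phosphate to coenzyme Q, was 3.22-fold and 3.08-fold lower. The electron transfer flavoprotein system was split: Etfb fell 2.97-fold in control mice (adjusted p = 0.00014), while Etfdh, its dehydrogenase, rose 2.53-fold (adjusted p = 2.9e-06). Etfdh gave 222, 217 and 221 in spleen control and 554, 564 and 555 in lymph node control, with little spread and no sign of the replicate 1 gap.

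Assembly factors whose names fall outside the rule (39 genes) had 8 lower (20.5%) in each genotype and 3 higher in control and 4 in Cre mice. With the block 8 were higher in each genotype, and 10 were lower in control and 9 in Cre mice. Sdhaf1, which helps load iron-sulfur clusters into Sdhb, rose from 693, 476 and 566 in spleen control to 3106, 3506 and 3048 in lymph node control. It was 5.62-fold higher in control and 5.87-fold higher in Cre mice (adjusted p = 1.2e-07 and 9.5e-08), while Sdhb itself lay at -0.65. Cox18, an insertase for complex IV, Lrpprc, which stabilises mitochondrial mRNAs, and Ecsit, a complex I assembly protein, were at -0.81 ± 0.14, -0.69 ± 0.12 and -0.70 ± 0.13 in control mice (largest adjusted p 0.00082).

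Regulators of mitochondrial biogenesis (19 genes) had 5 lower (26.3%) and 4 higher (21.1%) in each genotype, and with the block 6 and 5 in control and 9 and 5 in Cre mice. Pprc1, a coactivator of the PGC-1 family, fell from 328, 362 and 379 to 91.7, 85.7 and 66.4 in control mice, 4.42-fold (adjusted p = 6.2e-08), and 4.1-fold in Cre mice. Its relative Ppargc1a rose 1.62-fold (adjusted p = 0.00013), but at intensities of 24.7 to 50.6, close to background. Tfb1m, a mitochondrial rRNA methyltransferase, and Myc were lower, at -1.18 ± 0.17 and -1.49 ± 0.27 in control mice (adjusted p = 0.00012 and 0.00079).

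Carriers, uncoupling and membrane proteins (16 genes) had 4 lower (25.0%) and 3 higher in control and 4 lower and 1 higher in Cre mice. With the block these were 6 and 4, and 8 and 3. Nnt, the proton-driven transhydrogenase of the inner membrane, was 3.85-fold and 4.87-fold lower (adjusted p = 8.9e-07 and 1.9e-07). Phb2, a prohibitin, was lower at -0.47 ± 0.12 in control mice, and Vdac3, an outer membrane channel, was 1.97-fold higher. Slc25a4, an ADP/ATP carrier, was at 0.68 ± 0.18 in control (adjusted p = 0.012) and 0.49 ± 0.18 in Cre mice (adjusted p = 0.06).

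The large mitochondrial ribosomal subunit had 7 of 48 genes lower and 5 higher in control mice, and 8 and 5 in Cre mice. At 14.6% and 10.4% in control and 16.7% and 10.4% in Cre mice, these were near the shares of all genes. With the block they were 19 and 11 (39.6% and 22.9%), and 23 and 9 (47.9% and 18.8%). Mrpl42 and Mrpl3 were lower, at -2.33 ± 0.32 and -0.75 ± 0.14 in control mice, and Mrpl45 and Mrpl9 higher, at 1.25 ± 0.14 and 0.63 ± 0.13 (largest adjusted p 0.0022). Glycolysis had 8 of 17 measured genes lower (47.1%) and 2 higher in control and 10 lower (58.8%) and 3 higher in Cre mice, and with the block 9 and 2, and 11 and 3. Ldha, which makes lactate from pyruvate, fell 6.04-fold (adjusted p = 1.6e-07), from 2455, 1875 and 1795 to 318, 396 and 297. Hk3, a hexokinase of myeloid cells, and Pgam1, a phosphoglycerate mutase, fell 4.32-fold and 3.68-fold, while Eno2, an enolase known from neurons, was 14.9-fold higher (adjusted p = 2.5e-08).

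**Figure D4:**
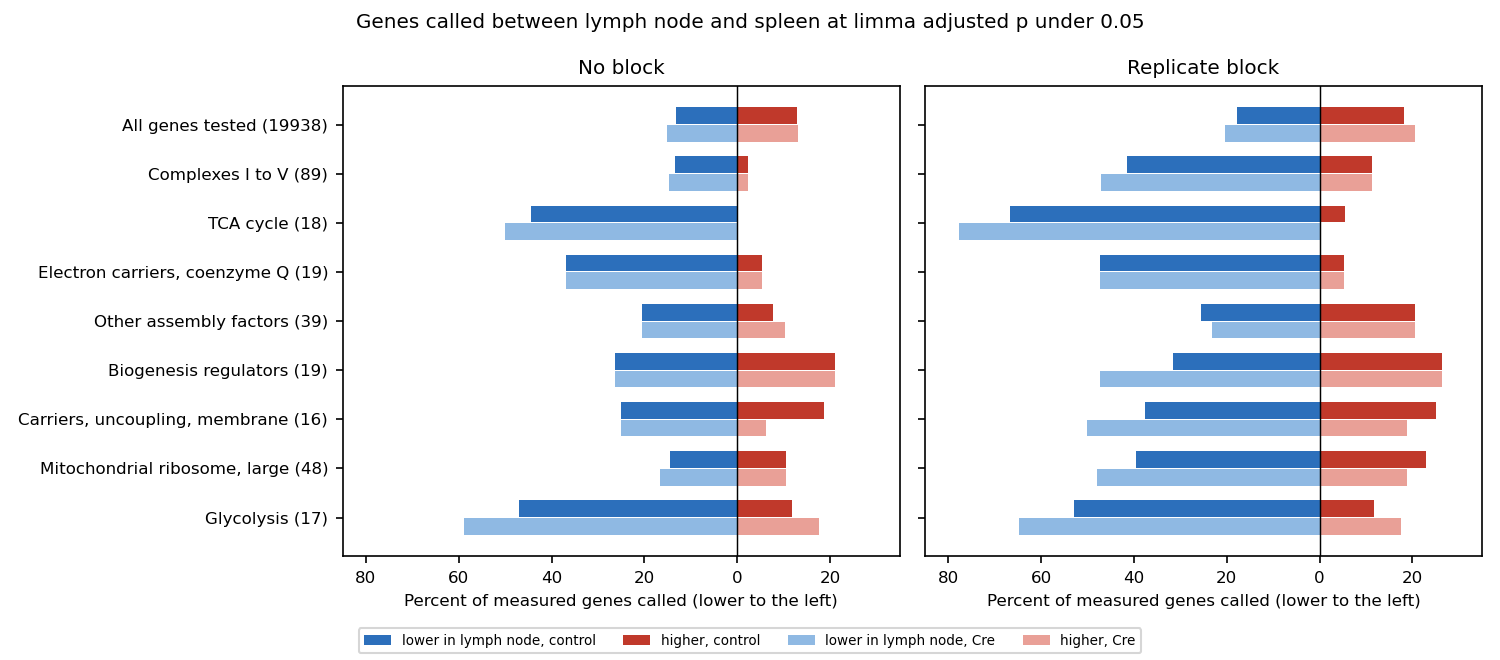
Share of measured genes called lower (left of 0, blue) and higher (right of 0, red) in lymph node against spleen, without (left panel) and with the replicate block (right panel), dark for control and light for Cre mice; numbers in brackets are the genes measured. For complexes I to V the lower share goes from 13.5% to 41.6% in control mice with the block, and the TCA cycle has 44.4% and 66.7%.

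Markers of other cell types moved with tissue as well. The summed intensity of 7 B cell markers was 733 to 1365 in spleen control and 966 to 1185 in spleen Cre, against 302 to 386 and 327 to 427 in lymph node. Fcrla and Ms4a1 made up this gap, while the defining Cd79a stayed between 21.9 and 32.5 on all 12 arrays. The sum of 8 macrophage and monocyte markers was 2945 to 3343 in spleen control and 3074 to 3126 in spleen Cre. In lymph node it was 1232 to 1370 and 1213 to 1254. Lyz2 and Cd68 carried this gap, with Csf1r between 67.0 and 107. This list was mixed: 2 of the 8 genes were lower and 1 higher in control, and 3 and 1 in Cre mice. Its highest difference was 1.04 in control and 1.29 in Cre mice. The sum of 5 stromal and endothelial markers was 683 to 832 in spleen and 337 to 420 in lymph node. Only 1 of the 5 was called lower in each genotype, and none higher. Their median difference was -0.10 in control and -0.07 in Cre mice. T cell markers summed to 669 to 812 in spleen and 687 to 1517 in lymph node, and plasmacytoid dendritic cell markers to 2053 to 2876 and 2651 to 3559. Both lists were mixed. Of 6 T cell genes, 3 were higher and 1 lower in control, and 4 and 1 in Cre mice. Of 5 plasmacytoid genes, 3 were higher and 1 lower in control, and 2 and 1 in Cre mice. The lowest plasmacytoid difference was -2.67 in control and -2.60 in Cre mice. For NK cells, type 2 conventional dendritic cells and neutrophils, the ranges of the 2 tissues overlapped in both genotypes. Summed erythroid markers overlapped in control mice, and in Cre mice every spleen array (152 to 166) was above every lymph node array. Langerhans cell and keratinocyte markers summed to 415 to 709 in spleen and 372 to 439.6 in lymph node in control mice, and to 490.2 to 697 and 368 to 471 in Cre mice. Of these 5 genes, 2 were higher and 1 lower in control and 3 and 1 in Cre mice. Of the cDC1 list itself, 9 of 13 genes were lower and 1 higher in lymph node in control, and 9 and 2 in Cre mice. Of all genes, 13.2% were lower and 12.9% higher in control, and 15.2% and 13.1% in Cre mice. The part of these differences in the values of the respiratory genes was not tested.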

How the data were processed

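RNA of sorted cDC1 was labelled with the WT Pico kit and hybridised to 12 arrays, per the labels' protocols. The deposited intensity values, 1 per probe set and array, come from the authors' RMA run; the submitters' processing notes name RMA and Affymetrix Expression Console, with versions not given in the sources used here. They lay between 8.23 and 20398, so log2 was taken. RMA puts all arrays on 1 distribution of probe values, which hides a shift shared by all genes. Of 28853 probe sets, 5443 were not listed in the annotation and 1621 carried several symbols and were not used. The brightest probe set stood for each of 999 genes that had several, which left 19938 genes. Old symbols were updated through RefSeq (21698 matched).

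The 4 group means were fitted in limma 3.58.1 (R 4.3.3) with eBayes and a trend, two-sided, with Benjamini-Hochberg adjustment over all genes in each of 5 comparisons, and called at 0.05. The fit without the block was tested on simulated data whose arrays deviated independently, so that test does not cover deviations shared between arrays. The fit with the replicate block is given beside the fit without it because same-numbered arrays deviated together. Correlations of deviations from group means were 0.57 to 0.73, 0.31 to 0.45 and 0.29 to 0.47 for numbers 1, 2 and 3. Between different numbers the median was -0.45. This adds no separate evidence, because the deviations of each group sum to 0. The labels give only the number, not what it stands for. The background excluded Sry, at 192 on its probe set. Alternatives were the block, other scalings, probe set means, a filter on dim genes, no trend, array weights, only the groups compared, array symbols and arrays left out.

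Genes named were the called members without overlap (up to 10 a direction), the 5 smallest p a direction where fewer than 6 were called, isoform families, Sdh genes, Atpif1, disagreeing or dim members, 4 genes per pathway list, Cd40, Xcr1 and the 3 largest replicate 1 gaps a direction. Members and lists were chosen with earlier results of these data known. Promoter windows and starts are RefSeq's. Precision is limited by the number of arrays. Figures were drawn with matplotlib.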

Additional observations from a re-analysis of the deposited data

How the results depend on the processing

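The members called higher and lower in control and then in Cre mice were 2, 12, 2 and 13 without the block. With the replicate block they were 10, 37, 10 and 42, and the block changed no call in the genotype comparisons or in the test of the difference. Array weights gave 7, 32, 8 and 31. Without all replicate 1 arrays they were 7, 32, 7 and 37. Chosen after seeing the data, the replicate block without all replicate 1 arrays gave 7, 31, 7 and 37, and leaving out all replicate 3 arrays gave 0, 1, 0 and 5. Quantile normalization gave 1, 10, 1 and 9 and kept 11 of the 14 calls in control and 9 of the 15 in Cre mice. It lost Cox5a in both, Atp5g3 and Sdhb in control, and Ndufs1, Ndufv1, Atp5pb, Atp5g1 and Ndufaf4 in Cre mice. The fit of only the groups compared gave 2, 11, 1 and 11. The cause was not tested, beyond the fewer arrays in the fits that leave some out. Without any single array, 1 to 3 members were higher and 8 to 17 lower in control mice, and 0 to 2 and 8 to 20 in Cre mice. The median member difference then ran from -0.38 to -0.068 in control and from -0.38 to -0.081 in Cre mice. For Cre minus control it ran from -0.10 to 0.20 in spleen and from -0.15 to 0.21 in lymph node, and from -0.18 to 0.16 for the difference between tissues, so the sign of these 3 medians turned with single arrays. The count of members called stayed at 0 in those 3 comparisons under every setting run. No member named for its call reversed. The number of arrays and, for Cox7b2, signal at background limit what can be seen. An alternative reading of the values as already on a log scale was not run because they are linear.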

Other observations

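Probe sets that carry several symbols were outside the rule. A pair of them, assigned to Ndufb4 and its copy Ndufb4b, was higher in lymph node, at 1.21 and 1.19 on the log2 scale in control mice (limma adjusted p = 0.00079 and 0.00096) and 1.17 for both in Cre mice (adjusted p = 0.00099 and 0.0011). Near-identical copies share these probes, so the gene behind the signal is uncertain. The 3 probe sets of Cox7c with Gm12338 lay between 0.24 and 0.27 in control mice and were not called.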
